A study of Homo sapiens with 6 samples.

Results

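NF-κB is a family of transcription factors that switch on inflammatory and survival genes, and the genes examined here encode its subunits and the proteins that restrain it. The 10 members were NFKB1, NFKB2, RELA, RELB and REL for the subunits, NFKBIA, NFKBIE and NFKBIZ for the IκB family, and TNFAIP3 and TRAF1 for feedback targets. They were taken by gene symbol from both deposited count tables, in which all 10 were present among 41471 symbols of the CDK16 knockdown experiment and 34157 symbols of the rebastinib experiment. All 10 passed the filter on low values, an average of 1 CPM (counts scaled to a common library size) or more, which left 15295 and 15655 genes for comparison.

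MDA-MB-231, a human cell line of triple-negative breast cancer (TNBC), was used for all 6 libraries. In the knockdown experiment the cells stably carried a lentiviral scramble-shRNA, CDK16-sh1 or CDK16-sh2, so both knockdown libraries and their control had been through viral transduction. Whether each line was 1 clone or a pool is not given in the sources used here. In the second experiment cells received the vehicle DMSO or rebastinib (Reb), a multi-target kinase inhibitor that acts on CDK16, at 1 μM or 5 μM for 48 h. Each condition had 1 library, so no difference between single libraries has a replicate check and none of them carries a p-value. The question addressed was how the RNA of these genes stood in cells with less CDK16, or with a compound that inhibits it, relative to the matched control.

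In resting cells NF-κB dimers are held in the cytoplasm by IκB proteins. Signals from TNF, interleukin-1 or Toll-like receptors activate the IκB kinase complex (IKK), which marks IκBα for degradation and frees RELA with p50, the product of NFKB1. A slower, non-canonical route turns the p100 product of NFKB2 into p52, which pairs with RELB. NFKBIA, NFKBIE, TNFAIP3, TRAF1, NFKB1, NFKB2 and RELB are themselves known NF-κB targets, so the pathway drives its own inhibitors, and basal-like breast cancer lines such as MDA-MB-231 are known for constitutive NF-κB activity.

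The DNA sequence that NF-κB dimers bind, the κB motif, is shown first because NF-κB targets, which many of these genes are, are recognised through it. The κB consensus of 10 bases was searched on both strands, with overlapping matches kept, in the RefSeq promoters of the members on GRCh38.p14, each reaching from 250 bases before to 50 bases after an annotated start. The table held 15 promoters of 8 members, and 8 of the 15 (53.3%) had at least 1 match, against 5.91% of all 35116 promoters. At least 2 matches, counting overlapping ones, were found in 26.7% of the member promoters and in 0.738% of all promoters. A match is a description of the letters and not a measured binding site. The windows below hold 30 bases each, read 5′ to 3′ on the gene's strand, with the match in capitals. They show 1 match for each gene that had one, with a second window for NFKB2 and TNFAIP3. Not every match is shown.
NFKB1: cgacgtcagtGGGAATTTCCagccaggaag
NFKB2, before the downstream start: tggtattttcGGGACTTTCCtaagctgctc
NFKB2, before an upstream start: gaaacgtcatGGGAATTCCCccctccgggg
REL: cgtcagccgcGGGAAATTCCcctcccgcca
NFKBIA: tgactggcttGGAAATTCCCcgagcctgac
NFKBIZ: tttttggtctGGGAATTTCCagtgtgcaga
TNFAIP3, farther match: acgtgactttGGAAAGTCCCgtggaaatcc
TNFAIP3, nearer match: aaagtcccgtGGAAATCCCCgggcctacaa

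The NFKB1 window lies at chr4:102501300-102501329 and its match covers bases -49 to -40 from the annotated start. The NFKB2 windows lie at chr10:102395674-102395703 and chr10:102394461-102394490 on the plus strand, inside the annotated span of the gene and before its alternative starts. The first match reaches from -21 to -12 and the second from -107 to -98. The REL window lies at chr2:60881517-60881546, from -47 to -38. In the second NFKB2 window and in the REL window a further match, on the other strand, is shifted by 1 base. The NFKBIA window lies on the minus strand at chr14:35404811-35404840 and its match covers bases -81 to -72. The NFKBIZ window, at chr3:101827757-101827786, has its match at -223 to -214, far from the start. A further NFKBIZ match, at -239 to -230 from another start, is not shown. The TNFAIP3 windows overlap each other, at chr6:137867182-137867211 and chr6:137867194-137867223, with the matches from -67 to -58 and from -55 to -46. No match was found in the 2 promoters of RELA or the 3 of TRAF1, which says only that these letters are not in those windows. Of 36 promoters of 25 other NF-κB target genes described further on, 13 (36.1%) held a match.

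All 10 members are protein-coding genes, and the start and end in the deposited tables equalled those of GENCODE 29 on GRCh38. The subunit genes lie at chr4:102501329-102617302 (NFKB1), chr10:102394110-102402529 (NFKB2), chr11:65653596-65663094 (RELA), chr19:45001430-45038198 (RELB) and chr2:60881521-60931610 (REL). The IκB genes lie at chr14:35401511-35404749 (NFKBIA), chr6:44258166-44265788 (NFKBIE) and chr3:101827991-101861022 (NFKBIZ). TNFAIP3 lies at chr6:137867188-137883312 and TRAF1 at chr9:120902393-120929173. In GENCODE 29 the exons of REL share 5702 bases with a non-coding RNA on the same strand, AC010733.2. The deposited length of REL was 11255 bases, against 13170 exonic bases in GENCODE 29, and AC010733.2 was not found among the deposited symbols. Whether the shared bases were counted is not known, so the level of REL is uncertain where reads fell there. TNFAIP3 and RELA share 95 and 9 exon bases with RNAs of the opposite strand, and the strand setting of the counting is not given in the sources used here.

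Total counts were 25838443 to 31955119 in the knockdown experiment and 37655548 to 50303269 in the Reb experiment. CDK16 itself had 3223 counts in the scramble library, 1360 with CDK16-sh1 and 846 with CDK16-sh2, log2 fold changes of -1.52 and -1.82, in the direction of the labels. VIM, CD44, AXL, CAV1 and MSN, which this mesenchymal-like line expresses, had 607 to 188518 counts in every library. Of the markers that the line lacks, ESR1, PGR, CDH1 and the leukocyte gene PTPRC, none passed 8 counts in the knockdown libraries, and none passed 7 with DMSO or 4 at 5 μM Reb. The 1 μM Reb library had 12, 16, 53 and 35 counts of these genes, whose part in the results below was not tested. Mitochondrial transcripts took 7.19% and 8.30% of the counts with DMSO and 1 μM Reb but 16.4% at 5 μM, and 16.2% with CDK16-sh2 against 11.3% and 10.4% in the other knockdown libraries. Counts were scaled with edgeR's TMM factors. Scaling by library totals instead moved the median log2 fold change of all genes by -0.68 at 5 μM and by -0.19 with CDK16-sh2, and by less than 0.1 in the other comparisons against a control.

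RPKM, the authors' read count divided by gene length and library total, allows the levels of the genes to be ordered within a library. With scramble-shRNA the order was led by NFKBIA (29.4 RPKM), RELA (23.4) and NFKB2 (21.8), followed by NFKBIE (8.16), NFKB1 (6.81), RELB (5.23), NFKBIZ (4.10), TRAF1 (2.87), TNFAIP3 (2.51) and REL (0.925). With DMSO, NFKB2 (31.5 RPKM) and NFKBIA (31.4) were level at the top, ahead of RELA (26.9), NFKBIE (14.2), TNFAIP3 (8.98), NFKB1 (7.26), NFKBIZ (6.35), RELB (3.36), TRAF1 (2.02) and REL (1.31). The control cells of both experiments thus carried the same leading genes, NFKBIA, RELA and NFKB2, and REL at the bottom. At 5 μM Reb the order was different, with NFKB1 (21.9 RPKM) first, TNFAIP3 (7.17), NFKBIA (5.99), RELA (4.27) and NFKBIZ (3.31) next, and RELB (0.210) and TRAF1 (0.173) last. Neighbours in these orders were not tested against each other, since no condition had a second library.

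**Figure D1:**
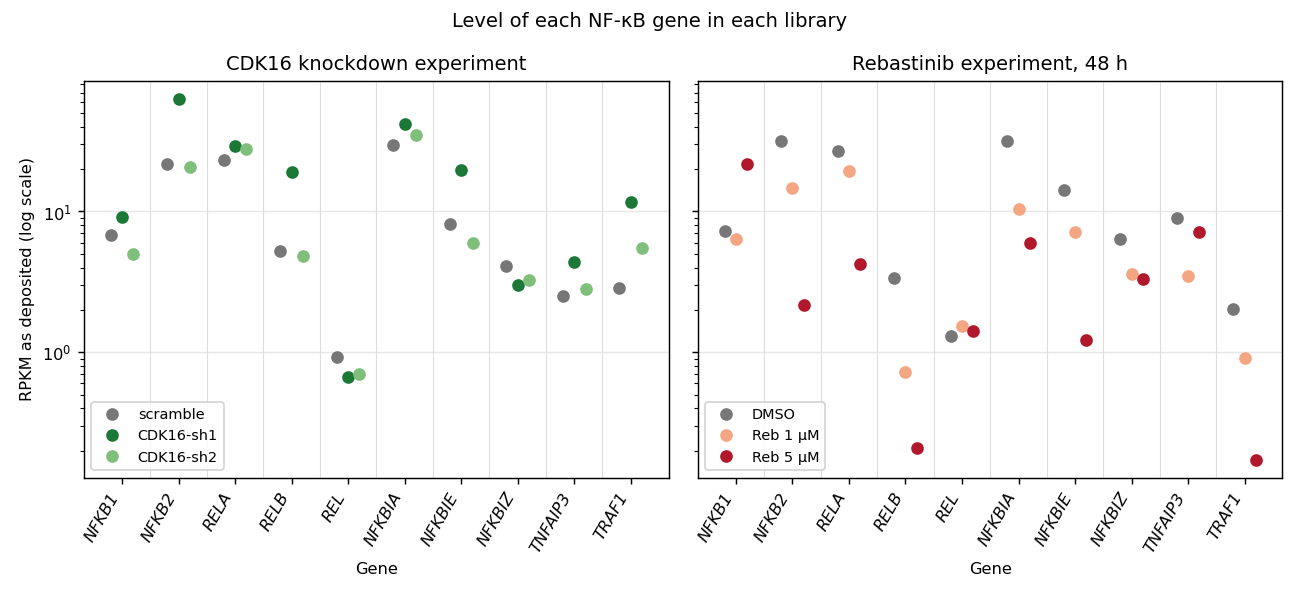
Level of each of the 10 genes in each of the 6 libraries, as the authors' RPKM on a log axis, 1 point per library (left, scramble-shRNA and the 2 CDK16 hairpins; right, DMSO and Reb at 1 μM and 5 μM). CDK16-sh1 lies above the other knockdown libraries for NFKB2, RELB, NFKBIE and TRAF1, and 5 μM Reb lies far below DMSO for the same genes while NFKB1 lies above it at 21.9 RPKM.

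With CDK16-sh1, 8 of the 10 members were higher than with scramble-shRNA and 2 lower, where 50.1% of all genes were lower. Of the 8, 4 were at least 2-fold higher, against 4.33% of all genes. The median log2 fold change of the 10 members was 0.67, where that of all genes was -0.00. None was at least 2-fold lower, against 6.86% of all genes. The 4 were TRAF1, RELB, NFKB2 and NFKBIE. With CDK16-sh2 only TRAF1 was at least 2-fold higher, against 2.2% of all genes, none was at least 2-fold lower, against 7.62%, and the median of the members was 0.11, with 0.02 for all genes. The hairpins shared the scramble library, so their values are given side by side for each gene. Brackets hold 95% counting intervals (Clopper-Pearson), which cover counting error only and not the spread between cultures.

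Among the subunits, the non-canonical pair stood apart with CDK16-sh1. NFKB2, the precursor of p52, had 2530 counts with scramble-shRNA, 9016 with CDK16-sh1 and 2557 with CDK16-sh2, or 21.8, 62.9 and 20.7 RPKM. RELB, the partner of p52, had 410, 1837 and 405 counts, or 5.23, 18.9 and 4.85 RPKM. In both genes the CDK16-sh1 library was high while CDK16-sh2 was near the control. The log2 fold change of NFKB2 was 1.56 [1.49, 1.62] with CDK16-sh1 and 0.12 [0.04, 0.20] with CDK16-sh2. That of RELB was 1.88 [1.73, 2.04] and 0.09 [-0.11, 0.29]. With library totals the small values with CDK16-sh2 changed sign, to -0.07 for NFKB2 and -0.11 for RELB.

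The canonical subunits differed less. NFKB1, the source of p50, had 1101, 1820 and 852 counts, with log2 fold changes of 0.45 [0.34, 0.56] for CDK16-sh1 and -0.26 [-0.39, -0.13] for CDK16-sh2, so the hairpins lay on either side of the control. RELA, the main transactivating subunit, had 3297, 5122 and 4206 counts and was somewhat higher with each hairpin, at 0.36 [0.30, 0.42] and 0.46 [0.39, 0.52]. REL, the subunit best known from lymphocytes, was the least abundant, with 269, 239 and 216 counts and 0.665 to 0.925 RPKM. Its log2 fold changes were -0.44 [-0.70, -0.19] and -0.21 [-0.47, 0.05], the second within counting error of 0.

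Among the IκB genes, NFKBIA, which encodes IκBα, had 1805, 3155 and 2287 counts, and the log2 fold changes of the hairpins were alike in size, 0.53 [0.45, 0.61] and 0.45 [0.36, 0.54]. NFKBIE, which encodes IκBε, had 544, 1620 and 423 counts. It was 2.45-fold higher with CDK16-sh1, a log2 fold change of 1.29 [1.16, 1.44], but slightly lower with CDK16-sh2, at -0.26 [-0.44, -0.07]. NFKBIZ encodes IκBζ, a nuclear member that works as a cofactor for a subset of targets, and it was lower than the control with CDK16-sh1. It had 626, 565 and 533 counts, at -0.42 [-0.59, -0.26] and -0.12 [-0.29, 0.04].

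The feedback targets were higher with each hairpin. TRAF1, an adaptor of TNF receptors and a known NF-κB target, had 478 counts with scramble-shRNA, 2392 with CDK16-sh1 and 984 with CDK16-sh2, or 2.87, 11.6 and 5.55 RPKM. Both hairpin libraries lay above the control, by 4.12-fold and 2.21-fold, log2 fold changes of 2.04 [1.90, 2.19] and 1.15 [0.99, 1.31]. With library totals the second was 0.95, just under 2-fold. TNFAIP3 encodes A20, the ubiquitin-editing enzyme that shuts down signalling to IKK, and had 328, 703 and 388 counts. Its log2 fold changes were 0.82 [0.63, 1.02] and 0.35 [0.13, 0.57], with CDK16-sh1 the higher.

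The hairpins were also compared directly. With CDK16-sh2, 3 members were at least 2-fold lower than with CDK16-sh1, against 8.68% of all genes, and none at least 2-fold higher, against 6.53%. These were RELB, at -1.79 [-1.96, -1.64], NFKBIE, at -1.55 [-1.71, -1.40], and NFKB2, at -1.43 [-1.50, -1.37]. TRAF1 was at -0.90 [-1.01, -0.79] and NFKB1 at -0.71 [-0.83, -0.59]. NFKBIA and RELA differed least between the hairpins, at -0.08 [-0.16, -0.00] and 0.10 [0.04, 0.16]. With library totals 4 members were at least 2-fold lower, TRAF1 at -1.06 being the added one, and NFKBIA and RELA were at -0.25 and -0.07. Against scramble-shRNA, the log2 fold change of CDK16 itself was -1.82 with CDK16-sh2 and -1.52 with CDK16-sh1. Whether the level of CDK16 bears on the differences between the hairpins was not tested.

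At 1 μM Reb, 9 of the 10 members were lower than with DMSO, against 49.8% of all genes, and 6 of them by at least 2-fold, against 1.92%. The 6 were RELB, NFKBIA, TNFAIP3, TRAF1, NFKB2 and NFKBIE. None was at least 2-fold higher, against 1.28% of all genes, and the median log2 fold change of the members was -1.09, with 0.00 for all genes. At 5 μM, 6 members were at least 2-fold lower, against 27.2% of all genes, and 1, NFKB1, at least 2-fold higher, against 23.6%. The median of the members was -1.83 and that of all genes -0.07. At 5 μM 2-fold differences were found in 50.8% of all genes, so the count of members there is to be read against that share, whereas at 1 μM they were found in 3.19%. In bulk RNA, fewer cells of a kind and less RNA per cell cannot be told apart. Both doses were set against the same DMSO library, and the values are given side by side.

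Of the subunits, RELB had 513 counts with DMSO, 109 with 1 μM Reb and 24 with 5 μM, or 3.36, 0.727 and 0.210 RPKM. NFKB2 had 7105, 3274 and 367 counts, or 31.5, 14.8 and 2.17 RPKM. In both genes each dose was below DMSO and 5 μM was the lower. RELB was 4.70-fold lower at 1 μM, a log2 fold change of -2.23 [-2.57, -1.96], and -3.25 [-3.97, -2.72] at 5 μM, where the 24 counts leave a wide interval. NFKB2 was 2.20-fold and 8.96-fold lower, at -1.14 [-1.20, -1.08] and -3.16 [-3.32, -3.02].

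RELA had 7381, 5267 and 878 counts, lower at each dose, with log2 fold changes of -0.51 [-0.56, -0.46] and -1.96 [-2.07, -1.86]. NFKB1 had 2285 counts with DMSO, 1965 with 1 μM Reb and 5152 with 5 μM, or 7.26, 6.36 and 21.9 RPKM. It was slightly below DMSO at the low dose and far above it at the high dose, at -0.24 [-0.33, -0.15] and 2.28 [2.21, 2.35]. REL had 743, 858 and 596 counts and 1.31 to 1.54 RPKM, with log2 fold changes of 0.18 [0.04, 0.33] and 0.79 [0.63, 0.95]. With library totals the 5 μM value was 1.59 for NFKB1 and 0.10 for REL.

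Of the IκB genes, NFKBIA had 3754, 1222 and 535 counts, or 31.4, 10.4 and 5.99 RPKM. Both doses were below DMSO, with log2 fold changes of -1.64 [-1.74, -1.55] at 1 μM and -1.70 [-1.84, -1.57] at 5 μM. With library totals these were -1.59 and -2.39, so the gap between the doses depended on the scaling. NFKBIE had 1844, 913 and 118 counts, at -1.04 [-1.15, -0.92] and -2.85 [-3.14, -2.59], with library totals at -0.99 for 1 μM, just under 2-fold. NFKBIZ had 1886, 1051 and 735 counts, at -0.87 [-0.98, -0.76] and -0.25 [-0.38, -0.13], so that the low dose lay further from DMSO than the high dose. With library totals the latter was -0.94.

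Of the feedback targets, TRAF1 had 655, 290 and 42 counts, or 2.02, 0.911 and 0.173 RPKM. It was lower at each dose, at -1.19 [-1.40, -0.997] and -2.82 [-3.34, -2.40]. TNFAIP3 had 2281, 863 and 1364 counts, or 8.98, 3.46 and 7.17 RPKM, lowest at 1 μM. Its log2 fold change was -1.42 [-1.54, -1.31] at 1 μM and 0.37 [0.27, 0.46] at 5 μM, but the latter was -0.32 with library totals, so its side of the DMSO level at 5 μM depended on the scaling.

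**Figure D2:**
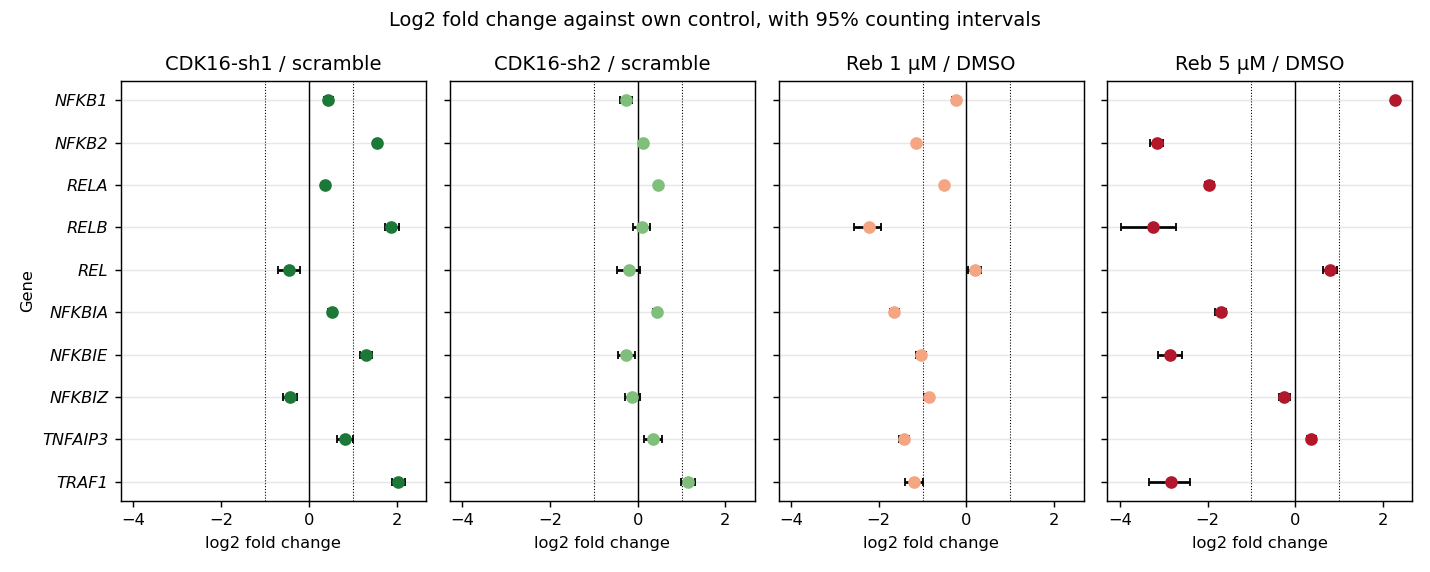
Log2 fold change of each gene in each treated library against its own control, with the 95% counting interval as the bar, 1 library per condition (TMM scaling). Dotted lines mark 2-fold. CDK16-sh1 and both Reb doses have points beyond the lines on opposite sides, and NFKB1 at 5 μM stands alone at 2.28.

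The doses were compared directly as well. At 5 μM, 5 members were at least 2-fold lower than at 1 μM, against 25.8% of all genes, and 2 at least 2-fold higher, against 22.8%. The lower ones were NFKB2, at -2.02 [-2.19, -1.87], NFKBIE, at -1.81 [-2.11, -1.54], TRAF1, at -1.63 [-2.16, -1.19], RELA, at -1.45 [-1.56, -1.35], and RELB, at -1.02 [-1.75, -0.40]. The higher ones were NFKB1, at 2.52 [2.45, 2.60], and TNFAIP3, at 1.79 [1.67, 1.92]. NFKBIA was the 1 member whose interval held 0, at -0.06 [-0.21, 0.09], and NFKBIZ and REL were higher by 0.61 and 0.60. With library totals NFKBIA was at -0.80, TNFAIP3 was still above the 1 μM library, by 1.05, and NFKBIZ and REL were at -0.12 and -0.13. RELB was under 2-fold with DESeq2 size factors, at -0.95, and with the GC trend removed, at -0.87, and RELA with GC and length trends removed, at -0.98.

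The main test across all genes took both treated libraries of an experiment as 1 group, so that the difference between hairpins or doses served as the spread. With edgeR's quasi-likelihood test and Benjamini-Hochberg adjustment no gene of 15295 passed an adjusted p of 0.05 and 2-fold in the knockdown experiment, where the smallest adjusted p was 0.195. An unadjusted p under 0.05 was reached by 382 genes, and DESeq2 also called 0, with 233 such genes. Of the members, TRAF1 and RELB had unadjusted p-values of 0.0041 and 0.0298 in this edgeR fit and an adjusted p of 1.00. In the Reb experiment 1 gene was called lower (0.00639%) and 11 higher (0.0703%) of 15655, none of them a member. RELB had the only unadjusted p under 0.05 of the members, 0.0342, with an adjusted p of 1.00 in the edgeR fit.

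With dose fitted as a linear term on the scale log2(μM + 1), which has 1 residual degree of freedom from the 3 libraries, edgeR called 7 of the 10 members. This fit called 11.1% of all genes lower and 13.3% higher. NFKB2 (adjusted p = 0.000292), NFKBIE (0.00129), RELB (0.0025), TRAF1 (0.00466), RELA (0.0174) and NFKBIA (0.0327) were called lower with dose, with edgeR slopes from -1.26 (RELB) to -0.62 (NFKBIA), and NFKB1 (0.00189) higher, with a slope of 0.93. REL (0.322), TNFAIP3 (0.517) and NFKBIZ (0.852) were not called in this edgeR fit. A call need not mean a difference between the doses. NFKBIA was called, but at 5 μM against 1 μM it was at -0.06 [-0.21, 0.09] with TMM scaling. This linear fit has no second library at any dose. Its p-values test the slope against a spread from the distance of the 3 libraries to a straight line, shared across genes. They do not measure the spread between repeated cultures.

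Ratios of 2 members within a library do not depend on how libraries are scaled. The RPKM of NFKB1 over that of NFKB2 was 0.312 with scramble-shRNA, 0.145 with CDK16-sh1 and 0.239 with CDK16-sh2. It was 0.230 with DMSO, 0.430 with 1 μM Reb and 10.1 [9.05, 11.2] at 5 μM. NFKB2 was the more abundant of these precursors in 5 of the 6 libraries, and NFKB1 only at 5 μM Reb.

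TNFAIP3 over NFKBIA, the A20 brake against the IκBα brake, was 0.0797 to 0.105 in the knockdown experiment. It was 0.285 with DMSO, 0.332 with 1 μM Reb and 1.20 [1.08, 1.33] with 5 μM. NFKBIA had the higher RPKM except at 5 μM Reb, where TNFAIP3 did. RELB over RELA was 0.224, 0.646 and 0.173 in the knockdown libraries and 0.125, 0.0373 and 0.0492 in the Reb libraries, so CDK16-sh1 held the highest share of RELB. RELB over its partner NFKB2 moved within a narrower range, 0.234 to 0.301 in the knockdown libraries and 0.0492 to 0.107 in the Reb libraries. TRAF1 over TNFAIP3 was 1.14, 2.66 and 1.99 with scramble-shRNA, CDK16-sh1 and CDK16-sh2, and 0.225, 0.263 and 0.0241 with DMSO, 1 μM and 5 μM Reb.

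**Figure D3:**
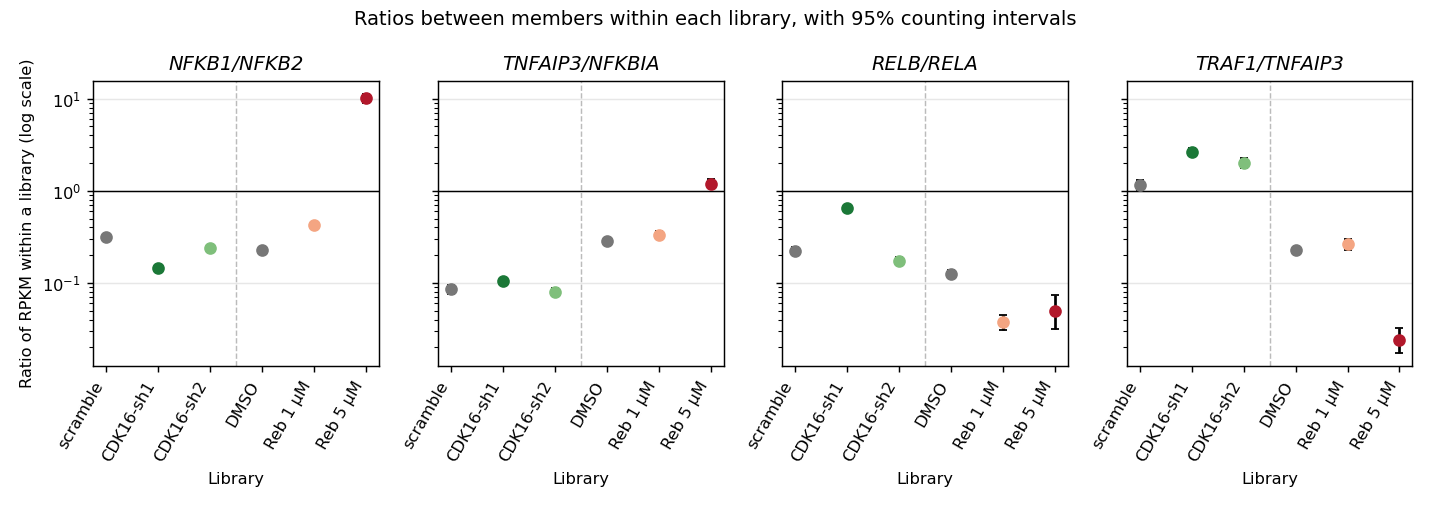
Ratios of the RPKM of 2 members within each library, on a log axis, with 95% counting intervals as bars (1 library per condition, the dashed line separates the experiments). NFKB1 over NFKB2 and TNFAIP3 over NFKBIA are above 1 only at 5 μM Reb, at 10.1 and 1.20, and RELB over RELA is highest with CDK16-sh1, at 0.646.

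The control cells of the experiments differed in these genes. TNFAIP3 was the 1 member at least 2-fold apart, 2281 counts with DMSO against 328 with scramble-shRNA, a log2 ratio of 1.94 [1.78, 2.12] over the symbols shared by the separate tables. In that comparison 13.1% of 15783 genes were at least 2-fold higher with DMSO and 12.3% at least 2-fold lower. NFKBIE, NFKBIZ, NFKB2 and REL were higher with DMSO by 0.91, 0.74, 0.64 and 0.61, RELA, NFKB1 and NFKBIA by 0.20 to 0.31, and TRAF1 and RELB lower, at -0.40 and -0.53. The counts came from separate tables, and the control libraries were scaled together over the shared symbols. Viral transduction, vehicle and any other difference between the experiments cannot be told apart in this comparison.

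Fold changes across all genes moved with the GC content of the transcripts. Across 12940 genes of the knockdown experiment Pearson's r of log2 fold change with GC content was 0.48 for CDK16-sh1 and 0.13 for CDK16-sh2, and across 13202 genes of the Reb experiment it was -0.30 at 1 μM and -0.22 at 5 μM. The genes share their libraries, so these values are descriptions. With CDK16-sh1 the fifth of genes with the lowest GC content had a median log2 fold change of -0.43 and the fifth with the highest 0.42, and at 5 μM Reb these medians were 0.41 and -0.59. The members span this range, from 38.7% in REL, 46.2% in NFKBIZ, 49.5% in TNFAIP3 and 50.1% in NFKB1 to 65.4% in RELB. Between these lay NFKBIA at 53.1%, TRAF1 at 54.6%, RELA at 57.1%, NFKBIE at 61.0% and NFKB2 at 62.4%. RELB, NFKB2 and NFKBIE, the members richest in GC, were among the highest with CDK16-sh1 and the lowest at 5 μM. TRAF1, of middling GC content, was the highest with CDK16-sh1, at 2.04, and was at -2.82 at 5 μM. Whether GC content had a part in these values, or in the ratios within a library above, was not tested.

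With the GC trend of all genes removed, an alternative added after seeing the data, CDK16-sh1 had log2 fold changes of 1.85 for TRAF1, 1.37 for RELB, 1.13 for NFKB2 and 0.91 for NFKBIE, the last now under 2-fold. At 1 μM Reb RELB was at -1.99, while NFKB2 and NFKBIE came to -0.92 and -0.83. At 5 μM NFKB1 was at 2.36, NFKB2 at -2.69, NFKBIE at -2.36 and RELA at -1.55. NFKBIA and TNFAIP3, near the middle of the range at 53.1% and 49.5%, moved little at 1 μM, with TNFAIP3 at -1.41.

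**Figure D4:**
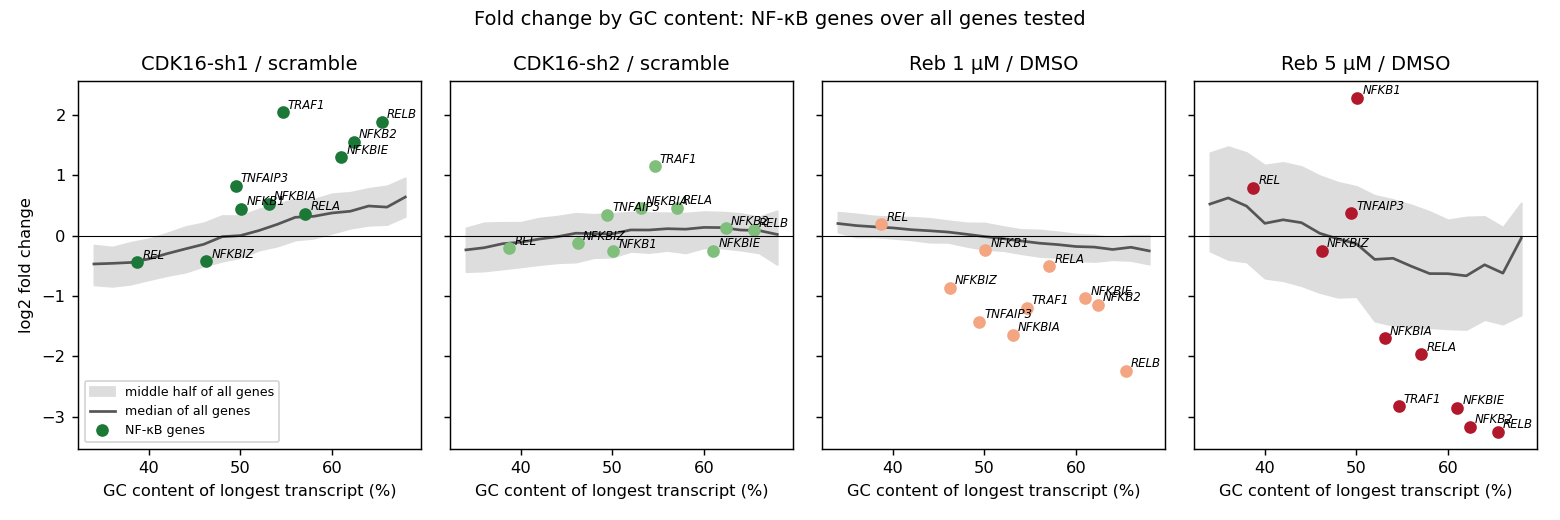
Log2 fold change against the GC content of each gene's longest transcript, 1 panel per treated library. The line is the median of all genes with a GC value in bins of GC content, the band holds their middle 50%, and the points are the 10 members. The median climbs with GC content for CDK16-sh1 (r = 0.48) and sinks with it for Reb. Most members lie outside the band with CDK16-sh1 and at both Reb doses. With CDK16-sh2, TRAF1, RELA, NFKBIA and NFKBIE do.

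Other genes of the pathway were taken from lists of its regulators, adaptors, receptors and targets. The counts in these lists stand against the shares of all genes, which were 6.86% at least 2-fold lower and 4.33% higher with CDK16-sh1, 7.62% and 2.2% with CDK16-sh2, 1.92% and 1.28% at 1 μM Reb, and 27.2% and 23.6% at 5 μM. Of 15 other inhibitors and brakes, 3 were at least 2-fold higher with CDK16-sh1 and none lower, and 1 was higher and 1 lower with CDK16-sh2, with list medians of 0.16 and 0.21. ZC3H12A, the RNase that degrades inflammatory transcripts, had 268, 999 and 584 counts, log2 fold changes of 1.61 and 1.22. TNIP1, a partner of A20, was at 0.73 and 0.82 and TNIP2 at 0.55 and 0.56. On the other side were the deubiquitinase CYLD, at -0.46 and -0.52, the ubiquitin ligase ITCH, at -0.41 and -0.57, and OTULIN, which cuts linear ubiquitin, at -0.19 and -0.05. In the Reb experiment 3 of the 15 were at least 2-fold lower at 1 μM and none higher, and 4 lower and 5 higher at 5 μM, near the shares of all genes at that dose, with medians of -0.08 and -0.14. TNIP1 had 27349, 12821 and 6204 counts, at -1.12 and -1.03, and ZC3H12A was at -1.48 and -0.27. OTULIN, at 0.22 and 2.29, N4BP1, at 0.09 and 1.27, and ITCH, at 0.13 and 1.21, were above DMSO, mostly at the high dose, and OTUD7B was at -0.15 and -1.21. With library totals 5 of the 15 were lower and 2 higher at 5 μM, where the median of all genes was -0.75 with that scaling.

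Of the 25 genes of IKK and its adaptors, with CDK16-sh1 1 was at least 2-fold lower and none higher, and with CDK16-sh2 and at 1 μM Reb none passed 2-fold, with medians of -0.09, -0.06 and -0.01. With the GC trend removed the count with CDK16-sh1 was 0, and with library totals 2 were lower with CDK16-sh2. At 5 μM 7 were lower and 6 higher, near the shares of all genes, with a median of -0.01. With library totals these were 11 and 3, but the median of all genes was then -0.75. The balance of the list, like that of all genes, thus depended on the scaling, and shares of all genes were not computed for library totals. RIPK1, the kinase scaffold of the TNF receptor, was at -0.86 and -0.35 with the hairpins, and the IKK-related kinase TBK1 at -0.60 and -0.30. IRAK1, a kinase of interleukin-1 receptor signalling, was at 0.71 and 0.44, TAB1 at 0.24 and 0.41 and SHARPIN, a subunit of the linear ubiquitin ligase, at 0.69 and 0.14. CHUK, which encodes the kinase IKKα, was at -0.40 and -0.53 with the hairpins and at 0.30 and 1.43 with Reb. IKBKE, an IKK-related kinase, had 2585, 1440 and 84 counts in the DMSO, 1 μM and 5 μM libraries, at -0.87 and -3.82, and the adaptors TAB1 and TRAF2 were at -0.15 and -3.25, and at -0.43 and -1.46. MAP3K14, the kinase NIK at the head of the non-canonical route, was at 0.28 and 1.28, and BIRC2, a ubiquitin ligase that keeps NIK low, at 0.65 and 1.63.

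Of 11 receptors, 2 were at least 2-fold lower with CDK16-sh1, with none by CDK16-sh2, and the medians were -0.29 and -0.05. The count with CDK16-sh1 was 0 with the authors' RPKM or with the GC trend removed, and with library totals 1 was lower with CDK16-sh2. LTBR, the lymphotoxin receptor that feeds the non-canonical route, was at 0.52 and 0.84 with the hairpins, TNFRSF12A at 0.29 and 0.71, TLR4 at -0.51 and -0.58, TNFRSF11A at -0.22 and -0.17 and IL1RAP at -1.19 and -0.05. In the Reb experiment 9 receptors passed the filter, none of them 2-fold apart at 1 μM, and 7 were lower and 1 higher at 5 μM, where 27.2% and 23.6% of all genes were, with medians of 0.02 and -1.65. TNFRSF1A, the main TNF receptor, had 2434, 1854 and 141 counts, at -0.42 and -2.99, CD40 was at -0.31 and -1.35 and TNFRSF12A at -0.50 and -0.97. The interleukin-1 receptor partner IL1RAP was at 0.30 and 1.46, the latter under 2-fold with library totals, where no receptor was 2-fold higher.

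The 30 other targets are cytokines, chemokines, adhesion and survival genes, of which 23 and 26 passed the filter, so that counts cover only those. With CDK16-sh1 5 were at least 2-fold higher and none lower, and with CDK16-sh2 2 were higher and 5 lower, with medians of 0.60 and 0.20. IL6, the cytokine of the acute-phase response, had 81, 753 and 149 counts, at 2.91 and 0.97, and the chemokine genes CXCL2 and CXCL3 were at 1.64 and 0.90, and at 0.71 and 2.18. CD83 was at -0.83 and -1.05. Other targets lay on opposite sides of the control with the hairpins, of which 4 are named after their values were seen because they were at least 2-fold lower with CDK16-sh2. PTX3, a secreted pattern-recognition protein, was at 1.04 and -3.06, the adhesion molecule ICAM1 at 0.59 and -2.54, TNFAIP2 at 0.76 and -1.32 and the transcription factor IRF1 at 0.25 and -1.06. At 1 μM Reb 16 of 26 targets were at least 2-fold lower, against 1.92% of all genes, and none higher. At 5 μM 14 were lower, against 27.2%, and 2 higher, against 23.6%, and the medians were -1.47 and -1.27. The neutrophil chemokine genes CXCL1 and CXCL8 were at -4.91 and -4.96 at 1 μM and the cytokine gene IL1B at -3.69, all larger differences than in any member. GADD45B, a stress-response gene, had 814, 1166 and 8783 counts, at 0.49 and 4.54, and CFLAR, an inhibitor of caspase-8, was at 0.19 and 0.05.

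**Figure D5:**
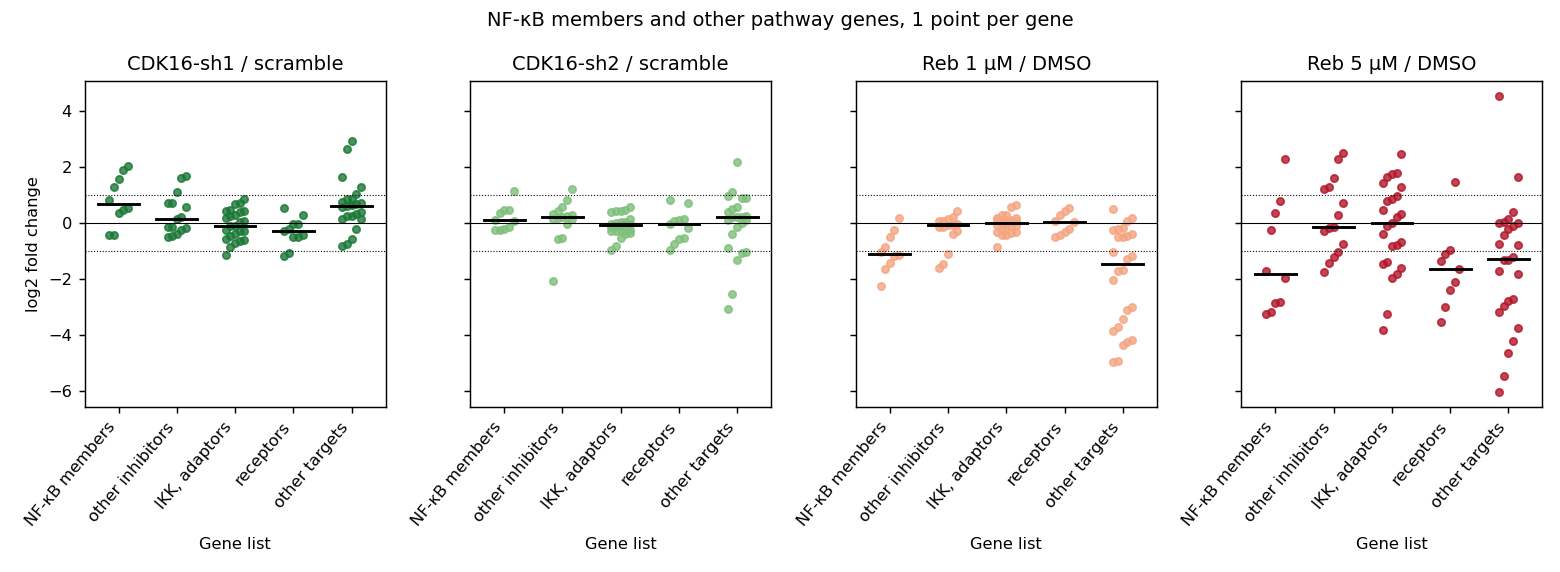
Log2 fold change of the 10 members and of the genes in 4 other NF-κB pathway lists that passed the filter, 1 point per gene, with a bar at each list's median and dotted lines at 2-fold, 1 panel per treated library. At 1 μM Reb the members (median -1.09) and the other targets (median -1.47) lie below the other lists, whose medians are -0.08 to 0.02.

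Genes with the most similar fold changes were sought for a main inhibitor and for A20, by the root mean square difference over the 4 log2 fold changes against own control, among the 10463 genes that averaged 5 CPM or more in each experiment. For NFKBIA the nearest were MSH5-SAPCD1 (0.29), RFX1 (0.33), TMCO6 (0.35), PHLDB3 (0.37) and MSH5 (0.41). MSH5 and MSH5-SAPCD1 overlap and may share reads. For TNFAIP3 they were MEF2D (0.32), TMEM141 (0.35), MAFF and HMGA1 (0.36 each) and ADCK3 (0.38). No other member was among the nearest genes of either. RELB could not be, since it averaged 3.84 CPM in the Reb experiment and was not searched.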

How the data were processed

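Stranded mRNA libraries of 6 MDA-MB-231 conditions, 1 library each, were sequenced on a HiSeq X 10. The submitters' processing notes name Trimmomatic, featureCounts of Subread 1.5.1 and GRCh38, and the aligner is not given in the sources used here. The deposited count tables hold the authors' whole-number read counts per gene symbol, without normalization. For the RPKM tables the authors scaled each count by gene length and library total, and these values equalled those recomputed from the deposited counts to a relative difference of 5.50e-07.

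Genes averaging 1 CPM or more in an experiment were kept. Log2 fold changes came from TMM-scaled CPM with a prior count of 2 (R 4.3.3, edgeR 4.0.16), and 2-fold is the threshold of the study's methods. Intervals (95%, Clopper-Pearson) treat the counts of 2 libraries as a binomial share, and since the reads carry no molecular identifiers they cover counting error only. The test across genes was the quasi-likelihood test of edgeR, adjusted by Benjamini-Hochberg. Alternatives were DESeq2 1.42.0, library totals, mitochondrial transcripts left out, no filter, a prior count of 0.5, the authors' RPKM with 0.1 added, a 1.5-fold threshold, dose as a linear term and, added after seeing the data, removal of GC and length trends (loess, span 0.3), with a GC value for 84.6% and 84.3% of the genes.

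The members and lists were chosen with earlier results of these data known. All 10 members are named. From each list up to 3 genes per direction and experiment were named, among those averaging 5 CPM or more with the same direction in both treated libraries, in order of the smaller of the 2 absolute log2 fold changes. Promoters are those of RefSeq on GRCh38.p14, which held 8 of the 10 symbols.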

Additional observations from a re-analysis of the deposited data

How the results depend on the processing

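Of 40 member values against their own control, all kept their direction with DESeq2 size factors, without mitochondrial transcripts, without the filter and with a prior count of 0.5, and 37 did with library totals or the authors' RPKM, 39 with the GC trend removed and 38 with GC and length trends removed. Of 18 values past 2-fold, 16 remained with library totals or RPKM and 15 with either trend removed. Of 10 values past 2-fold between the hairpins or between the doses, 9 remained with DESeq2 size factors, 9 with the GC trend removed and 8 with GC and length trends removed, and 1 more passed with library totals or RPKM. With library totals or RPKM no member was at least 2-fold higher with CDK16-sh2 (0), where the member median was -0.0908 and -0.0898. At 5 μM Reb the member median was -2.52 with library totals, -2.50 with RPKM, -2.03 without the filter, -1.49 with the GC trend and -1.51 with GC and length trends removed, and at 1 μM it was -0.91 and -0.93 with these trends removed. A 1.5-fold threshold gave 2 members higher at 5 μM. The share of all genes at that threshold was not computed, and 23.6% were at least 2-fold higher at this dose. For both Reb doses as 1 group, genes called lower numbered 4 with DESeq2, 0 with library totals and 0 without the filter, and those called higher 0 with library totals and 3 without the filter. Dose as a linear term, a model of another form, called 1744 genes lower, 2088 higher and 7 members. The median log2 fold change of all genes moved with library totals too, to -0.75 at 5 μM Reb and -0.18 with CDK16-sh2. No cause of the differences between settings was tested. No paired analysis was possible because each condition had 1 library. Leaving out 1 treated library leaves 1 against 1, with no residual degrees of freedom, and gives the values of the single libraries above. Depth limits RELB and TRAF1 at 5 μM Reb, at 24 and 42 counts.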
